A study of Mus musculus with 8 samples.

Results

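RNA of the genes for V(D)J recombination was followed in 8 bulk libraries of T-lineage precursors from mice, taken before or after commitment to the lineage, and carrying control guides or CRISPR guides for Stat5a and Stat5b. The 9 genes, Rag1, Rag2, Dntt, Dclre1c, Prkdc, Lig4, Xrcc4, Xrcc5 and Xrcc6, were taken by symbol from the 24506 symbols of the count table. All 9 were found, and all 9 were among the 13775 genes that passed the filter on low counts. Every group, controls included, came from bone marrow of B6 mice with Cas9, a Bcl2 transgene and the Bcl11b-mCherry reporter on both alleles. Progenitors spent a night in IL-7, Flt3l and SCF, were transduced with guides in retrovirus, and were then cultured for 6 days on OP9-DLL1 stroma, which presents the Notch ligand DLL1 (10 ng/ml of each of IL-7 and Flt3l). Sorted cells lacked lineage markers and carried the infection marker and CD25. Groups of 2 libraries each were early control and early sgStat5 (mCherry-negative, before commitment) and late control and late sgStat5 (mCherry-positive, after commitment). For sgStat5, 3 guides were used per gene; the target of the control guides and the promoter behind Bcl2 are not stated in the labels. The series text describes the mCherry-positive sort as reporter negative too. Bcl11b RNA was 4.11 and 4.79 times as high in late as in early control libraries of replicates 1 and 2, and 6.02 and 5.92 times in sgStat5 libraries. Mouse ages are not stated, nor whether replicates are separate animals or cultures, so a p-value reflects the spread among these libraries alone, which may be technical.

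V(D)J recombination assembles antigen receptor genes from separate segments. RAG1 and RAG2 form the recombinase that cuts at the segments' signal sequences and leaves hairpin coding ends. The Ku proteins XRCC6 (Ku70) and XRCC5 (Ku80) bind broken ends and recruit the kinase PRKDC (DNA-PKcs), which activates the nuclease Artemis (DCLRE1C) to open hairpins. Terminal deoxynucleotidyl transferase (DNTT) adds nucleotides without a template, and DNA ligase IV (LIG4) seals the joint with its scaffold XRCC4. Rag1, Rag2 and Dntt are largely restricted to developing lymphocytes, whereas the end-joining factors repair breaks in most cells.

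The 3 lymphoid genes are introduced by their promoters, because their RNA differed most between gates. Rag1 (chr2:101638252-101649532, minus strand, mm10) and Rag2 (chr2:101624748-101632528, plus strand) are neighbours that point towards each other, their ends 5724 bases apart. Dntt lies at chr19:41029275-41059525 on the plus strand. The 250 bases upstream of each annotated start come from the RefSeq promoter table (GRCm38.p6) and read 5′ to 3′ on the gene's strand. Capitals mark each match, on either strand, to the E-box CANNTG, which E proteins bind, or to the GATA motif AGATAA; no matches overlap.
Rag1, chr2:101649533-101649782, minus strand: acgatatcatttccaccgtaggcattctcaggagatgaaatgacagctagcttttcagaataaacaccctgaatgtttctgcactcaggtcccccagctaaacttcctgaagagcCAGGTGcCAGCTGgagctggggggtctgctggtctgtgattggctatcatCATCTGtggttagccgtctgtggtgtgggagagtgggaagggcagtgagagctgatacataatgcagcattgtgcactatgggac
Rag2, chr2:101624462-101624711, plus strand: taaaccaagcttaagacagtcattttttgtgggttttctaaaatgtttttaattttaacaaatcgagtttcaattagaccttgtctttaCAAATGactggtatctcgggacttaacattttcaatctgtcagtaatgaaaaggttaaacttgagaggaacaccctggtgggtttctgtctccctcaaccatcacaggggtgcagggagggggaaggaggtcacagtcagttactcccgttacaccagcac
Dntt, chr19:41029025-41029274, plus strand: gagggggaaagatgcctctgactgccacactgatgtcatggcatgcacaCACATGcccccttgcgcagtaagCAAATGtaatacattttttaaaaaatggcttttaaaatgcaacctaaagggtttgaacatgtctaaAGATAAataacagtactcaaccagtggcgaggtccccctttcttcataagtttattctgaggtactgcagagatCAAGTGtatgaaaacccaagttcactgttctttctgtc

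The Rag1 window held 3 E-boxes, at -135 to -130 (CAGGTG), -128 to -123 (CAGCTG) and -85 to -80 (CATCTG) from the start. The Rag2 window held 1, and the Dntt window 3 beside a GATA motif at -112 to -107. Of 32851 promoters, 66.2% held an E-box and 9.99% the GATA motif in the same 250 bases. The STAT-type palindrome TTCNNNGAA, held by 7.02% of promoters, was not among the letters of this window in any of the 8 members with an entry (Prkdc has none). With the 50 bases after the start added, 1 member, Dclre1c, held it (TTCCCGGAA at 10 to 18), as did 8.30% of promoters. These matches describe letters, not binding.

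The other members lie at chr2:3424131-3461116 (Dclre1c), chr16:15637866-15842239 (Prkdc), chr1:72307421-72394953 (Xrcc5) and chr15:82016369-82040084 (Xrcc6) on the plus strand, and at chr8:9970020-9976323 (Lig4) and chr13:89848914-90089608 (Xrcc4) on the minus strand.

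Library totals ran from 22146490 to 31209177 counts. In CPM (counts relative to TMM-scaled library size), Stat5a was at 258 and 257 without and 106 and 105 with the guides before commitment, and at 257 and 238 without and 116 and 107 with them after it. Stat5b was at 255 and 248, 144 and 133, 279.7 and 255 and 154 and 135 CPM in that order. Both targets were lower in every sgStat5 than in every control library, although Cas9 cuts need not lower RNA. Il2ra, which encodes CD25, was at 1373 to 3151 CPM and the T-lineage gene Thy1 at 252 to 1126 CPM. Mean Il2ra was lower with the guides, at 3019 without and 2067 CPM with them before commitment, and 3011 and 1630 CPM after it. Mean Thy1 was at 540 and 272 and at 1015 and 731 CPM in that order. Il7r, another T-progenitor marker, went the other way, with means of 44.5 and 133 and of 82.2 and 238 CPM. Calls among all 12 such markers are given with the marker lists below. CD25 was a marker of the sort, and whether the guides altered which cells passed it was not tested. Of 12 markers of the B lineage, which also recombines receptor genes, 9 were below 1 CPM in all 8 libraries, among them Pax5 (0 to 0.0321 CPM) and Cd79a (0 to 0.430 CPM). The other 3 were Ebf1, for a factor of early B cells, at 0 to 5.31 CPM and higher in replicate 2 of each group, Cd79b at 5.55 to 14.6 CPM and Blk at 25.6 to 172 CPM. Of 10 double-positive thymocyte markers, 4 were below 1 CPM throughout, Cd4 (0 to 0.881 CPM), Cd8a (0 to 0.265 CPM) and Cd8b1 (0.191 to 0.702 CPM) among them, while Arpp21 (98.7 to 386 CPM) and Rmnd5a (137 to 215 CPM) were highest.

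**Figure D1:**
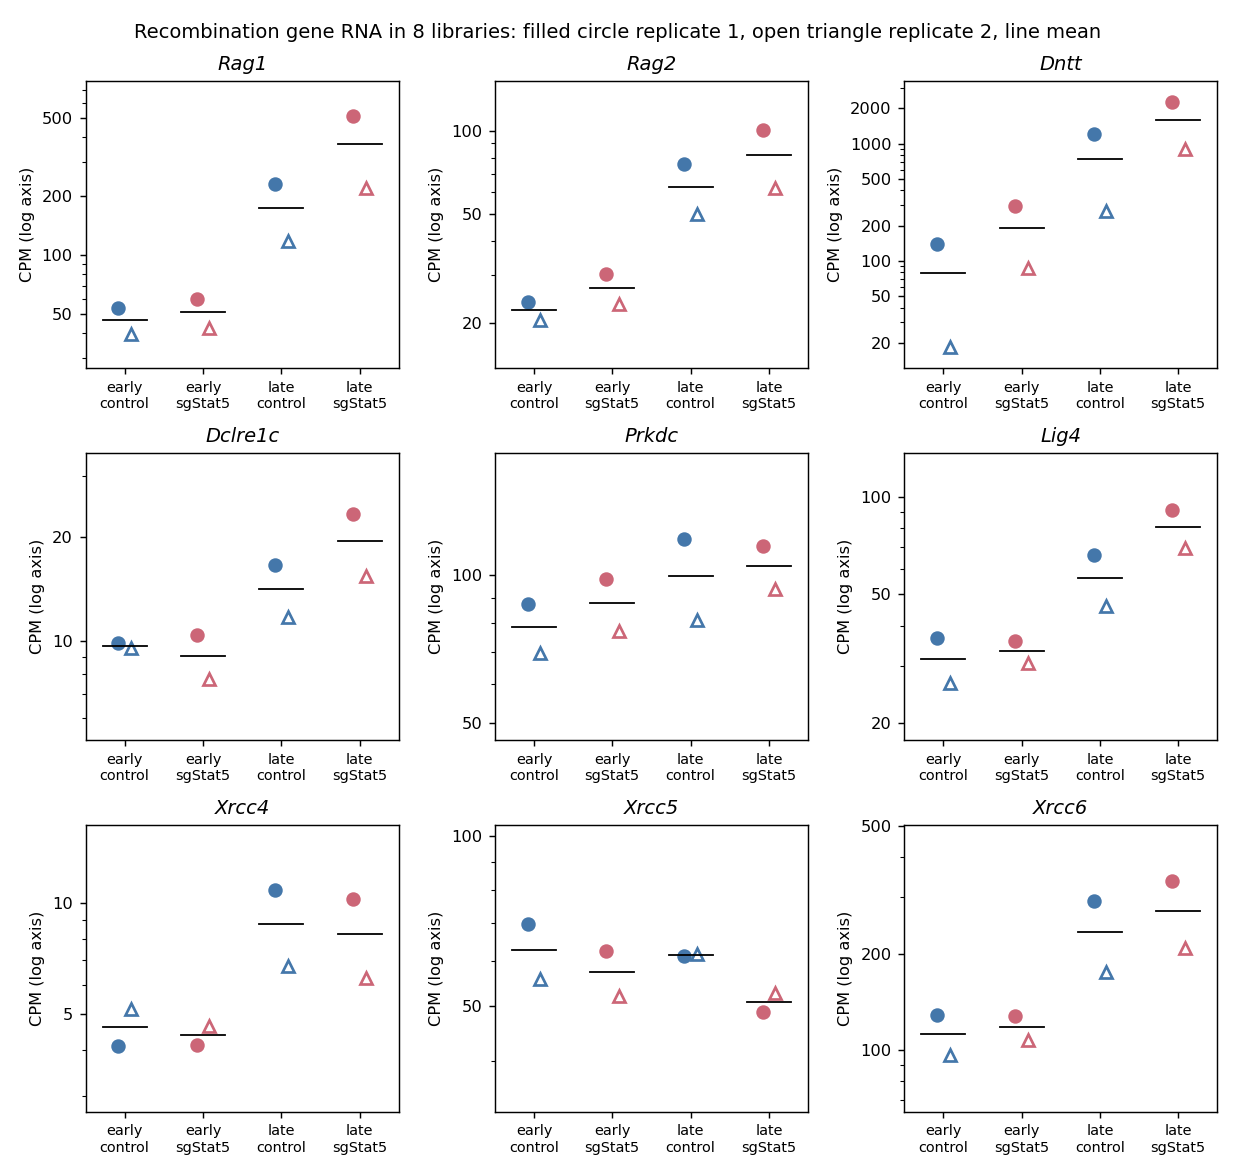
CPM of each recombination gene in every library, on log axes that differ between panels, with filled circles for replicate 1, open triangles for replicate 2 and a line at the mean. For Rag1, Rag2, Dntt, Dclre1c, Lig4, Xrcc4 and Xrcc6 both late libraries lie above both early libraries in each guide arm, while Prkdc and Xrcc5 overlap.

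For most of the recombination genes, libraries from after commitment held more RNA than those from before it. In control cells 7 of 9 genes had both late libraries above both early ones, against 24.6% of all genes tested (lower: 24.2%), and the same 7 did so in sgStat5 cells, against 28.1% (lower: 28.1%). edgeR's quasi-likelihood test with 1 mean per group passed 0 of 9 at an adjusted p of 0.05 (Benjamini-Hochberg over all genes) in either arm, where 0.0145% and 0.973% of all genes were called. At an unadjusted p under 0.05 there were 6 of 9 in control cells, against 14.9% of genes, and 7 of 9 in sgStat5 cells, against 24%. DESeq2, another count test, called 4 of 9 in control (Lig4, Rag1, Rag2 and Xrcc6) and 5 in sgStat5 cells (Dclre1c as well), all higher, against 4.86% and 12.7% of all genes with an adjusted p (3.12% and 6.68% higher). Replicates 1 and 2 differed in like fashion in all 4 groups, and a fit with the replicate number as a block called 6 of 9 higher in control cells (all genes: 10.9% called, 6.64% higher) and 6 of 9 in sgStat5 cells (22.8% called, 11.3% higher). Unblocked, the members' median log2 difference was 0.92 and 1.21, beside 0.03 and 0.03 over all genes. Differences below are log2 fold changes with their standard error (SE), and "blocked" means the fit with the replicate number.

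Rag1, the catalytic subunit of the recombinase, went from 54.1 and 39.9 CPM in replicates 1 and 2 of early control to 233 and 118 CPM in late control, and from 59.7 and 42.6 to 518 and 220.2 CPM in sgStat5 libraries. All 4 late libraries were above all 4 early ones, and replicate 1 was the higher in each group. The difference was 1.90 (SE 0.47, adjusted p = 0.213) in control and 2.85 (SE 0.48, adjusted p = 0.0530) in sgStat5 cells by edgeR. Blocked, Rag1 rose by 1.83 (SE 0.18, adjusted p = 0.00111) and 2.75 (SE 0.18, adjusted p = 8.73e-05).

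Rag2, the subunit that reads a histone mark of active promoters, went from 24.0 and 20.7 to 75.6 and 49.7 CPM in control and from 30.3 and 23.6 to 101 and 62.0 CPM in sgStat5 libraries. It too was higher in each late library than in each early one. The edgeR difference was 1.49 (SE 0.29, adjusted p = 0.185) and 1.60 (SE 0.29, adjusted p = 0.0600), and blocked, Rag2 rose by 1.46 (SE 0.13, adjusted p = 0.000990) and 1.57 (SE 0.13, adjusted p = 0.000220).

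Dntt, the template-independent polymerase, had the largest fitted stage difference of the 9 in both arms. It went from 138 and 18.3 to 1207 and 265 CPM in control and from 292 and 86.5 to 2282 and 902 CPM in sgStat5 libraries. In sgStat5 replicate 1 the late to early ratio of Rag1 was larger (8.66 against 7.81 for Dntt), and in replicate 2 that of Dntt (10.4 against 5.17). Groups were apart within each arm, while early sgStat5 replicate 1 was above late control replicate 2. The edgeR difference was 3.23 (SE 1.16, adjusted p = 0.290) and 3.07 (SE 1.15, adjusted p = 0.170), and blocked, Dntt rose by 3.40 (SE 0.30, adjusted p = 0.000921) and 3.21 (SE 0.29, adjusted p = 0.000302). With 1 library left out at a time, the unblocked difference in control cells ran from 1.78 (without late control replicate 1) to 5.31 (without early control replicate 1), and the blocked from 2.92 (without early control replicate 2) to 4.09 (without early control replicate 1). In sgStat5 cells they ran from 2.25 to 4.20 unblocked and from 2.70 to 3.62 blocked. By fold among 13775 genes in control cells, Dntt took place 51 among increases, Rag1 place 259 and Rag2 place 456.

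Of the 9 genes, Dntt also differed most between replicates, in each of the 4 groups. Replicate 1 exceeded replicate 2 by 7.57 times (early control), 4.56 (late control), 3.38 (early sgStat5) and 2.53 (late sgStat5). Bcl11b, the gene of the sort reporter, had ratios of 2.89, 2.48, 1.89 and 1.92 in that order, also with replicate 1 higher. The part of this replicate difference in the Dntt results was not tested.

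Lig4, the ligase, went from 36.6 and 26.6 to 66.1 and 46.1 CPM in control and from 35.8 and 30.8 to 91.4 and 69.8 CPM in sgStat5 libraries, with all late above all early values. The edgeR difference was 0.83 (SE 0.24, adjusted p = 0.244) and 1.27 (SE 0.24, adjusted p = 0.0611), and blocked, Lig4 rose by 0.82 (SE 0.11, adjusted p = 0.00359) and 1.26 (SE 0.11, adjusted p = 0.000223). Its scaffold Xrcc4 was scarce, at 4.09 and 5.17 and then 10.8 and 6.74 CPM in control, and 4.13 and 4.65 and then 10.2 and 6.27 CPM in sgStat5 libraries. Late values were all higher, yet Xrcc4 did not pass by edgeR, at 0.92 (SE 0.35, adjusted p = 0.304) and 0.90 (SE 0.35, adjusted p = 0.180), nor blocked, at 0.88 (SE 0.32, adjusted p = 0.110) and 0.87 (SE 0.32, adjusted p = 0.0815).

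The hairpin-opening nuclease gene Dclre1c went from 9.88 and 9.51 to 16.6 and 11.7 CPM in control and from 10.4 and 7.76 to 23.3 and 15.4 CPM in sgStat5 libraries. In control cells it did not pass (0.52, SE 0.19, adjusted p = 0.109, against an adjusted p of 0.404 unblocked). In sgStat5 cells it rose when blocked (1.08, SE 0.19, adjusted p = 0.00454, against an adjusted p of 0.0906 unblocked), a call lost without late sgStat5 replicate 1 (0.95, adjusted p = 0.0589).

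Genes of the end-binding complex differed among themselves. Xrcc6 went from 128 and 96.4 to 291 and 175 CPM in control and from 128 and 108 to 337 and 208 CPM in sgStat5 libraries, every late value above every early one. It rose when blocked in control (1.03, SE 0.12, adjusted p = 0.00228, against an adjusted p of 0.242 unblocked) and sgStat5 cells (1.17, SE 0.12, adjusted p = 0.000485, against an adjusted p of 0.0903 unblocked). Xrcc5, for the other Ku subunit, was at 69.7 and 55.7 and then 61.2 and 61.7 CPM in control, and at 62.6 and 52.0 and then 48.7 and 52.7 CPM in sgStat5 libraries, with overlap in both arms. It did not pass by edgeR, at -0.03 (SE 0.15, adjusted p = 0.946) and -0.18 (SE 0.15, adjusted p = 0.505), nor blocked. Prkdc, the kinase, was at 87.4 and 69.4 and then 118 and 81.3 CPM in control, and at 98.4 and 77.0 and then 115 and 93.8 CPM in sgStat5 libraries, again overlapping. Blocked, it rose in control cells (0.33, SE 0.09, adjusted p = 0.0428, against an adjusted p of 0.500 unblocked), a call lost when any 1 of 6 libraries was left out (adjusted p 0.0532 to 0.475), and did not pass in sgStat5 cells (0.25, SE 0.09, adjusted p = 0.0666, against an adjusted p of 0.524 unblocked). The blocked calls of Rag1, Rag2, Dntt, Lig4 and Xrcc6 held in both arms without each of the 8 libraries in turn.

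**Figure D2:**
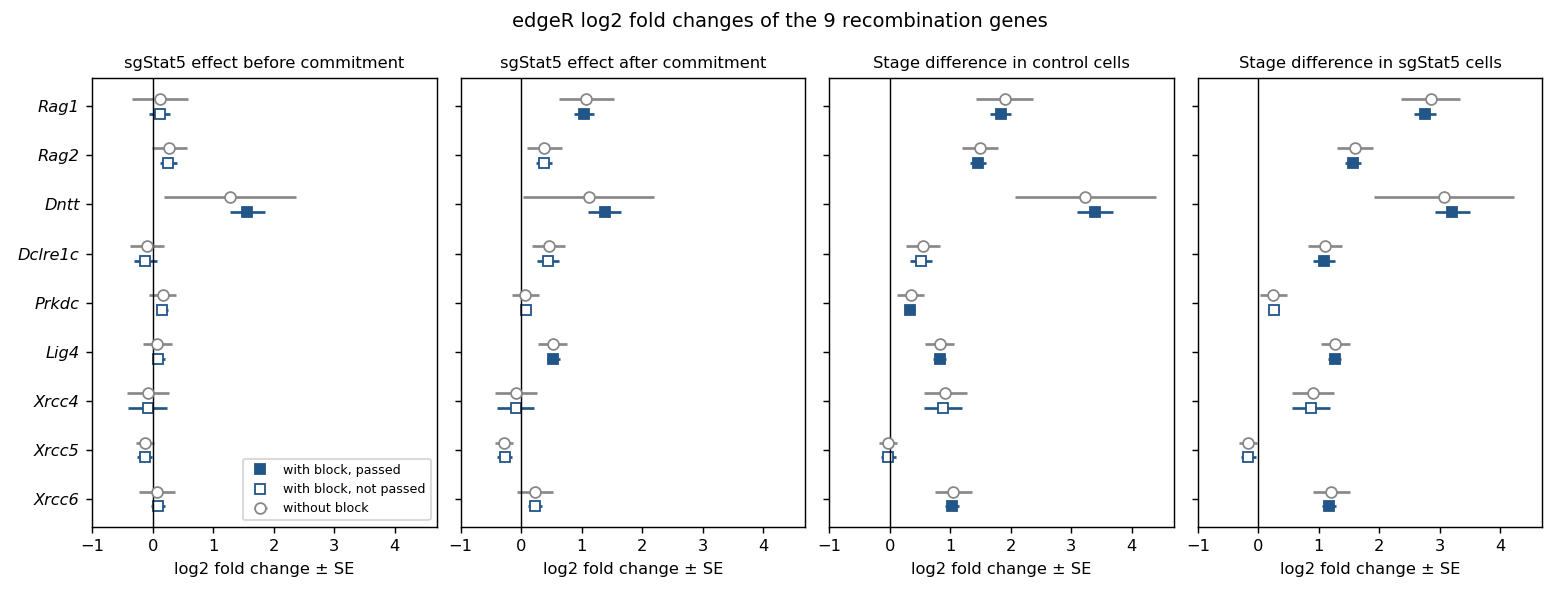
Log2 fold changes of the recombination genes from edgeR, with bars of 1 SE, in 4 comparisons (sgStat5 against control in each gate, late against early gate in each arm). Grey circles are the fit without and squares the fit with the replicate block, filled where the adjusted p is under 0.05; Dntt has the widest bars without the block (SE 1.08 to 1.16), and Xrcc5 lies below 0 in every panel.

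Between genes, levels were compared per length on the deposited FPKM (fragments per kilobase of transcript and library size). In early control libraries Xrcc6 (43.0 and 33.4 FPKM), Dntt (46.6 and 6.35) and Xrcc5 (19.4 and 16.0) included the highest values. Lig4 (6.32 and 4.75), Rag1 (5.71 and 4.35), Rag2 (4.99 and 4.44) and Prkdc (4.89 and 4.01 FPKM) overlapped, and Xrcc4 (1.87 and 2.45) and Dclre1c (1.72 and 1.71 FPKM) were lowest. In late sgStat5 libraries the order was Dntt (818 and 319.6 FPKM), Xrcc6 (119.8 and 73.4) and Rag1 (58.0 and 24.4), then Rag2 (22.3 and 13.5), Lig4 (16.7 and 12.6) and Xrcc5 (14.4 and 15.4), which overlapped. Prkdc (6.82 and 5.50), Xrcc4 (4.96 and 3.02) and Dclre1c (4.31 and 2.82 FPKM) were lowest. FPKM and counts of Dntt rest on different transcripts (2057 and 2116 bases).

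Partner proteins did not have RNA in a fixed ratio. The FPKM ratio of Xrcc6 to Xrcc5, the Ku heterodimer, was 2.22 and 2.09 for early control, 5.75 and 3.43 for late control, 2.46 and 2.51 for early sgStat5 and 8.34 and 4.78 for late sgStat5 libraries. Every late ratio was above every early one. Rag1 to Rag2 ran from 0.918 to 1.15 in early and from 1.21 to 2.60 in late libraries, again with all late above all early values. Lig4 to Xrcc4 overlapped between gates, at 1.94 to 3.37 early and 2.30 to 4.19 late. A ratio shows unequal change, not which partner changed.

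**Figure D3:**
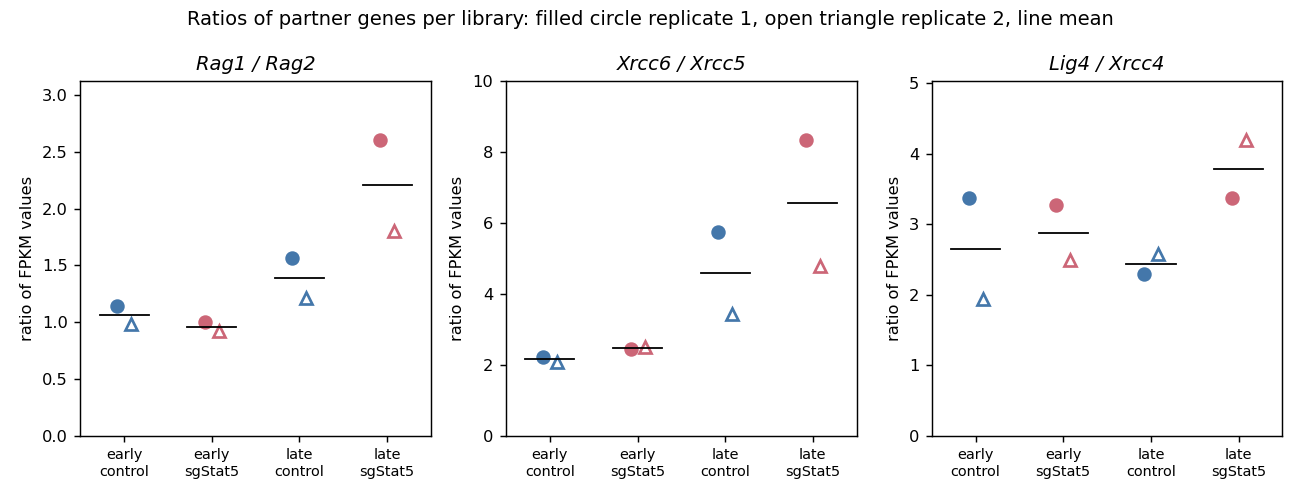
Ratio of deposited FPKM values for pairs of genes whose proteins act together, per library, with filled circles for replicate 1, open triangles for replicate 2 and a line at the mean. Xrcc6/Xrcc5 is 2.09 to 2.51 in early and 3.43 to 8.34 in late libraries, and Lig4/Xrcc4 overlaps between gates.

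Before commitment, Dntt was the 1 recombination gene called with the Stat5 guides. Early sgStat5 and control libraries overlapped for all 9 genes, while 18.7% of all genes were higher and 19.4% lower without overlap. edgeR passed 0 of 9 unblocked, against 0.269% of genes, with 0 of 9 at an unadjusted p under 0.05 against 6.44%. DESeq2 called 0 of 9, against 1.79%. Blocked, edgeR passed 1, against 2.33% called and 1% higher. The unblocked median was 0.08. Dntt was 2.11 and 4.73 times as high as in the control library of the same number, a blocked change of 1.56 (SE 0.29, adjusted p = 0.0255), and unblocked 1.27 (SE 1.09, adjusted p = 0.977). The call was lost without early control replicate 2 (1.07, adjusted p = 0.0611) or early sgStat5 replicate 2 (1.41, adjusted p = 0.0668), and the blocked change was 2.24 without early control replicate 1. Unblocked, it ran from 0.14 to 3.36 over the 8 fits that each left out 1 library. Rag1 stood at 0.12 (SE 0.18, adjusted p = 0.855) and Rag2 at 0.26 (SE 0.14, adjusted p = 0.482) when blocked.

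After commitment, Rag1, Dntt and Lig4 were higher with the Stat5 guides in the blocked fit. Unblocked, edgeR passed 0 of 9, against 1.71% of genes, with 1 of 9 at an unadjusted p under 0.05 against 12.4%. DESeq2 called 0 of 9, against 4.75%. Blocked, edgeR passed 3, against 8.22% called and 3.72% higher. Late groups did not overlap for Lig4, which was higher as 18.1% of genes were, and for Xrcc5, which was lower as 20.8% were. The unblocked median was 0.38, beside -0.02 over all genes.

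Rag1 was 2.23 and 1.86 times as high in late sgStat5 as in the late control library of the same number. The blocked change was 1.04 (SE 0.17, adjusted p = 0.00609), the unblocked 1.07 (SE 0.45, adjusted p = 0.401), and the call was lost without late sgStat5 replicate 1 (0.72, adjusted p = 0.0666). Dntt was 1.89 and 3.40 times as high, blocked 1.38 (SE 0.28, adjusted p = 0.0162) and unblocked 1.11 (SE 1.08, adjusted p = 0.766). Its call was lost without late control replicate 1 (1.48, adjusted p = 0.0666), late control replicate 2 (1.27, adjusted p = 0.133) or late sgStat5 replicate 2 (0.88, adjusted p = 0.119), and unblocked it ran from 0.29 to 2.56 over such fits. Lig4 was 1.38 and 1.51 times as high, blocked 0.53 (SE 0.11, adjusted p = 0.0160) and unblocked 0.52 (SE 0.24, adjusted p = 0.441). Its call was lost without late control replicate 2 (0.46, adjusted p = 0.135), late sgStat5 replicate 1 (0.54, adjusted p = 0.132) or late sgStat5 replicate 2 (0.52, adjusted p = 0.0974).

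The other 6 did not pass after commitment. Blocked, Rag2 was at 0.37 (SE 0.13, adjusted p = 0.126), Dclre1c at 0.45 (SE 0.18, adjusted p = 0.189) and Xrcc6 at 0.23 (SE 0.12, adjusted p = 0.301). Prkdc was at 0.08 (SE 0.09, adjusted p = 0.658), Xrcc4 at -0.09 (SE 0.31, adjusted p = 0.901) and Xrcc5 at -0.28 (SE 0.12, adjusted p = 0.235).

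A larger guide effect after than before commitment was not shown for any member. The difference between the effects passed for 0 of 9 and 0% of all genes by edgeR, blocked or not, with 0 of 9 and 2.19% of genes (302) at an unadjusted p under 0.05, and DESeq2 called 2 genes (0.0145%), neither a member. For Rag1 it was 0.92 (SE 0.24, adjusted p = 0.534) blocked and 0.95 (SE 0.64, adjusted p = 1) unblocked, and for Lig4 0.44 (SE 0.15, adjusted p = 0.723) blocked. All comparisons share libraries, since each group enters several.

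Beyond the 9 genes, 20 accessory genes of end joining and the break response were tested. Unblocked, edgeR passed 0 of them in any comparison, with 4 and 3 of 20 at an unadjusted p under 0.05 between gates in control and sgStat5 cells (all genes: 14.9% and 24%), and 1 and 3 with the guides before and after commitment (all genes: 6.44% and 12.4%). Between gates when blocked, 1 rose and 1 fell in control cells, and 2 rose and 2 fell in sgStat5 cells, with 10.9% and 22.8% of all genes called and blocked medians of 0.12 and 0.07. These shares were near those of all genes or below them. Polm and Poll encode polymerases mu and lambda, relatives of DNTT that fill gaps at broken ends. Polm went from 9.84 and 12.1 to 3.87 and 6.35 CPM in control and from 8.72 and 11.1 to 3.67 and 6.24 CPM in sgStat5 libraries, all late below all early values. Blocked, it fell in control (-1.13, SE 0.23, adjusted p = 0.0165, against an adjusted p of 0.266 unblocked) and sgStat5 cells (-1.03, SE 0.23, adjusted p = 0.0124, against an adjusted p of 0.156 unblocked), where Dntt rose. Poll was at 15.1 and 16.7 CPM in late sgStat5 and at 24.2 to 36.3 CPM in the other 6 libraries. Blocked, it fell with the guides after commitment (-0.91, SE 0.15, adjusted p = 0.00626, against an adjusted p of 0.115 unblocked) and between gates in sgStat5 cells (-0.89, SE 0.15, adjusted p = 0.00426, against an adjusted p of 0.0852 unblocked).

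Hmgb2, for a DNA-bending cofactor of the recombinase, rose between gates when blocked in control (0.39, SE 0.06, adjusted p = 0.00558, against an adjusted p of 0.155 unblocked) and sgStat5 cells (0.24, SE 0.06, adjusted p = 0.0187, against an adjusted p of 0.113 unblocked). The break-response kinase gene Atm rose in sgStat5 cells (0.32, SE 0.10, adjusted p = 0.0454, against an adjusted p of 0.369 unblocked). With the guides after commitment Vprbp (Dcaf1), for a ubiquitin ligase component that binds RAG1, fell (-0.39, SE 0.09, adjusted p = 0.0321, against an adjusted p of 0.132 unblocked).

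Of 17 genes for factors reported to act on Rag transcription, 9 rose and 1 fell between gates in control cells when blocked, and 9 rose and 1 fell in sgStat5 cells (blocked medians 0.27 and 0.47). Of all genes 10.9% and 22.8% were called, 6.64% and 11.3% higher. Both counts include Bcl11b, the gene of the sort reporter, whose difference between gates is no finding. Unblocked, edgeR passed 0 and 2 of 17 (all genes: 0.0145% and 0.973%), with 7 and 9 at an unadjusted p under 0.05 (all genes: 14.9% and 24%). The latter 2 were Foxo1, for a factor that binds a Rag enhancer in B-lineage cells, at 1.89 (SE 0.25, adjusted p = 0.0482), and the E-protein gene Tcf12, at 1.03 (SE 0.17, adjusted p = 0.0486). Foxo1 went from 6.73 and 8.84 to 20.0 and 14.8 CPM in control and from 9.43 and 7.50 to 35.1 and 27.7 CPM in sgStat5 libraries, with all late values higher. Those with the smallest blocked adjusted p in control cells were Ets1 (1.53, SE 0.08, adjusted p = 0.000197, unblocked 0.253), Bcl11b (2.14, SE 0.14, adjusted p = 0.000308, unblocked 0.256), Runx1 (0.55, SE 0.08, adjusted p = 0.00461, unblocked 0.299) and Tcf12 (0.57, SE 0.09, adjusted p = 0.00710, unblocked 0.237). In sgStat5 cells they were Ets1 (1.90, SE 0.08, adjusted p = 3.25e-05, unblocked 0.0894), Bcl11b (2.58, SE 0.14, adjusted p = 3.76e-05, unblocked 0.0908), Lef1 (3.73, SE 0.31, adjusted p = 0.000181, unblocked 0.0684) and Tcf12 (1.02, SE 0.09, adjusted p = 0.000283, unblocked 0.0486). The repressor gene Gfi1b was the 1 that fell in each arm (-3.12, SE 0.79, adjusted p = 0.0387, against an adjusted p of 0.390 unblocked, in control; -3.61, SE 0.79, adjusted p = 0.0123, against an adjusted p of 0.212 unblocked, in sgStat5 cells). With the guides, 7 of the list rose after commitment when blocked, against 8.22% of all genes called and 3.72% higher, and 0 unblocked (5 at an unadjusted p under 0.05, against 12.4%). Smallest in adjusted p were Tcf12 (0.63, SE 0.09, adjusted p = 0.00307, unblocked 0.154), Tcf7 (0.39, SE 0.06, adjusted p = 0.00372, unblocked 0.109), Bcl11b (0.74, SE 0.14, adjusted p = 0.0106, unblocked 0.755) and Satb1 (0.81, SE 0.16, adjusted p = 0.0161, unblocked 0.332). Before commitment Lef1 alone of the 17 passed when blocked, against 2.33% of all genes called. Lef1 was lower (-1.99, SE 0.30, adjusted p = 0.0111, against an adjusted p of 0.704 unblocked).

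By Pearson r of log2 CPM over the 8 libraries, the genes most like Rag1 were E2f2 (0.995), Ctsb (0.994), Rnf157 (0.994), Grk2 (0.994), Arid2 (0.993). For Rag2 they were Zfp658 (0.994), E2f2 (0.993), Kansl1l (0.993), Cmah (0.992), Mpp1 (0.992). For Dntt they included Zc3h7a (0.991), Crip1 (0.991), Csrnp1 (0.983), Prim2 (0.982). Among members, Rag1 had r of 0.988 with Rag2, 0.990 with Lig4, 0.917 with Dntt and -0.415 with Xrcc5. The libraries share gates, arms and replicate numbers, so these values are descriptions.

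Neighbouring genes bear on the counts because the kit named in the labels is not stated to keep strand. The span of Rag2 is overlapped by B230118H07Rik (2.45 to 8.93 CPM), whose difference between gates in control cells did not pass (-1.13, SE 0.37, adjusted p = 0.0886, against an adjusted p of 0.280 unblocked). GENCODE M21 exons of it cover 6.07% of Rag2 and 1.21% of Rag1 exonic bases. Suv39h2 (21.0 to 29.4 CPM) covers 4.48% of those of Dclre1c, and Tmem167 7.27% of those of Xrcc4. These shares pool all transcripts of a gene in that annotation, whereas counts rest on 1 deposited transcript per gene. In the deposited spans B230118H07Rik does not reach Rag1, and 58 bases lie between the starts of Tmem167 and Xrcc4. A share of bases is not a share of reads, which also depends on the level of the neighbour. Tmem167 was at 5.41 to 6.45 FPKM against 1.87 to 5.03 FPKM for Xrcc4, and Suv39h2 at 3.73 to 5.04 FPKM against 1.35 to 4.31 FPKM for Dclre1c, and how many of their reads were counted for the members was not measured. Traf6, beside Rag1, was at 85.7 to 118 CPM and did not pass between gates (0.26, SE 0.09, adjusted p = 0.0947, against an adjusted p of 0.295 unblocked). Beside Dntt, Blnk was at 0 to 0.840 CPM and Opalin at 0, and Lrrc4c, beside Rag2, was at 0 to 1.33 CPM.

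Among neighbours that start next to a member on the other strand, Desi1 rose together with Xrcc6. The starts of Xrcc6 and Desi1, a SUMO protease gene, are 148 bases apart, shown on the Xrcc6 strand from the same RefSeq table with the E-box in capitals.
Xrcc6, chr15:82016221-82016368, plus strand: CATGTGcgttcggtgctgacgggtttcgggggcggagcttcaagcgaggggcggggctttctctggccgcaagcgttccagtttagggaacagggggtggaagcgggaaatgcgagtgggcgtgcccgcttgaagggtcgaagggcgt

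Desi1 went from 159 and 123 to 244 and 168 CPM in control and from 149 and 122 to 304 and 214 CPM in sgStat5 libraries. It rose when blocked in control (0.53, SE 0.08, adjusted p = 0.00684, against an adjusted p of 0.346 unblocked) and sgStat5 cells (0.92, SE 0.08, adjusted p = 0.000296, against an adjusted p of 0.0907 unblocked). With the guides after commitment Desi1 was also higher when blocked (0.33, SE 0.08, adjusted p = 0.0432, against an adjusted p of 0.667 unblocked). Xrcc6 did not pass there (0.23, SE 0.12, adjusted p = 0.301 blocked). In GENCODE M21, with all transcripts of a gene pooled, exons of Desi1 cover 8.50% of Xrcc6 exonic bases. Counts rest on 1 deposited transcript per gene, and the deposited spans of Xrcc6 and Desi1 do not overlap. How many reads fell on shared bases was not measured. Mcm4 beside Prkdc (465 bases), Abhd13 beside Lig4 (1393) and Tmem167 beside Xrcc4 (58) did not pass in either arm. Meig1 beside Dclre1c was at 0.

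**Figure D4:**
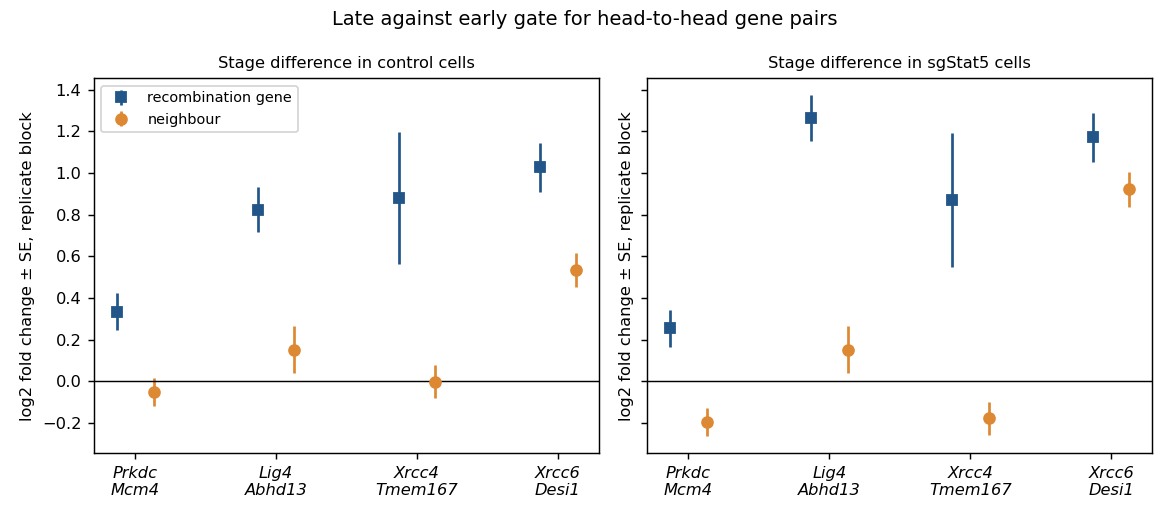
Log2 fold change between late and early gate, with the replicate block and bars of 1 SE, for recombination genes (squares) and the neighbour that starts beside each on the other strand (circles), in control and sgStat5 cells. Desi1 lies at 0.53 and 0.92, while Mcm4, Abhd13 and Tmem167 lie between -0.19 and 0.15.

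Summed levels of marker lists also differed between gates, and their part in these results was not tested. The 12 B-cell markers summed to 37.1 to 67.4 CPM in early and 75.6 to 185 in late control, and to 37.2 to 58.4 and 105 to 182 CPM in early and late sgStat5 libraries, most of it Blk. The 11 stromal markers summed to 200.4 to 388, 569 to 687, 183 to 352 and 592 to 683 CPM in that order. Blocked, 6.64% of all genes rose between gates in control and 11.3% in sgStat5 cells. Of 4 B-cell markers tested, 1 rose in each arm, and of 9 stromal markers tested, 1 and 4 rose. Lum was at 0 and Dcn at 0 to 0.135 CPM, while the other 9 were detected, with Thbs1 reaching 347 CPM. Mean Thbs1 was at 45.2 and 222 CPM in early and late control, and at 54.6 and 242 CPM in early and late sgStat5 libraries. 7 of the 11, among them Col1a1 and Fn1, were higher in replicate 2 of every group, the reverse of the order of Dntt. Another 2 were higher in replicate 1 of every group, as Dntt was. Col1a1, for a collagen chain, was at 7.99 and 50.3 CPM in replicates 1 and 2 of early control, 28.9 and 82.9 of late control, 0 and 36.2 of early sgStat5 and 29.2 and 76.3 of late sgStat5. Fn1, for fibronectin, was at 8.78 and 77.4, 27.3 and 136, 0 and 56.5 and 40.6 and 97.6 CPM in that order. The 12 myeloid and dendritic markers summed to 48.3 to 51.2, 10.9 to 17.2, 78.5 to 96.8 and 14.8 to 30.2 CPM. Of 9 tested, 1 was higher and 4 were lower between gates in each arm when blocked. The 12 T-progenitor markers summed to 5727 to 6681, 6890.4 to 9156, 5173 to 5527 and 6709 to 7889.8 CPM. Blocked, 8 were higher and 1 lower between gates in control and 8 and 2 in sgStat5 cells, Bcl11b included. Of all genes 10.9% and 22.8% were called in these fits, 6.64% and 11.3% higher. With the guides when blocked, 1 of the 12 was higher and 2 lower before commitment, and 4 were higher and 2 lower after it. Of all genes 2.33% and 8.22% were called there. Unblocked, 1 was higher before commitment, and 1 higher and 1 lower after it, against 0.269% and 1.71% of all genes called. The double-positive list summed to 269 to 317, 393 to 611, 279 to 293 and 479 to 693 CPM, and proliferation genes to 5074 to 5679, 6276 to 6369, 5195 to 5445 and 5574 to 5739 CPM. Of 8 double-positive markers tested, 3 and 4 were higher between gates in control and sgStat5 cells when blocked, and 0 lower. Of 13 proliferation genes, 3 were higher and 0 lower in control, and 2 higher and 4 lower in sgStat5 cells. With the guides after commitment, 2 of the 8 double-positive markers were higher and 1 of the 13 proliferation genes was lower when blocked. Of all genes 8.22% were called there, 3.72% higher. Before commitment 0 of either list were called. In bulk cells, more cells with a transcript and more of it per cell cannot be told apart.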

How the data were processed

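RNA of 8 libraries was sequenced; tools listed in the submitters' processing notes are STAR 2.4.0, RSEM 1.2.25 and bcl2fastq 1.8.4, with the GRCm38/mm10 build. Per the file headers, the authors ran HOMER's analyzeRepeats on exons with 1 transcript kept per gene, once without adjustment for the deposited counts and once for the deposited FPKM values. The test on counts was that of edgeR (version 4.0.16, R 4.3.3), after filterByExpr (13775 of 24506 genes kept) and TMM scaling, with 1 mean per group over all 8 libraries, a two-sided quasi-likelihood F-test and Benjamini-Hochberg adjustment at 0.05. The SE was taken as the size of the log2 fold change over the root of F. Residual degrees of freedom were 4, or 3 with the replicate block. Replicate deviations correlated across genes at 0.421 to 0.578 for the 6 pairs of groups, so equal numbers were treated as pairs, a reading of the data that the labels do not state. Log CPM for correlations used a prior count of 2. Chi-square per degree of freedom between the replicates of a group was 23.2 to 63.1, so replicates differed by more than counting noise.

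Named were the 9 members, the guide targets, Bcl11b, up to 4 called genes per other list and comparison by smallest adjusted p, the 5 genes most like Rag1, Rag2 and Dntt, and nearest or overlapping genes; 1 of the genes most like Dntt is not reported here. Head-to-head neighbours, FPKM ratios, Foxo1 levels, Gfi1b and single marker genes were chosen after their values were seen. Members and lists were chosen with earlier results of these data known. Alternatives were RLE scaling, other filters, DESeq2 1.42.0, limma 3.58.1 on FPKM, the groups compared alone, the replicate block and leaving out each library. On data simulated for 13775 genes, unblocked edgeR recovered 34 to 45% of 2-fold and 64 to 67% of 4-fold changes in the 4 comparisons between groups, and 7% and 45% for the difference between effects. With the block these were 70 to 72%, 76 to 81%, 57% and 77%. False calls were 0% unblocked and 2.56 to 10.7% of calls blocked. A replicate effect was part of the simulation, which favours the block.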

Additional observations from a re-analysis of the deposited data

How the results depend on the processing

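In the order before commitment, after commitment, between gates in control and between gates in sgStat5 cells, edgeR called 37, 235, 2 and 134 genes. With the replicate block it called 321, 1132, 1507 and 3144, with DESeq2 247, 629, 578 and 1684, without a filter 114, 340, 83 and 760, with a CPM of at least 5 in 2 libraries 36, 241, 2 and 231, with RLE scaling 37, 229, 2 and 149 and with only the groups compared 3, 4, 0 and 2. limma called 25, 228, 0 and 170 on log2(FPKM + 1) and 30, 193, 2 and 122 on log2(FPKM + 0.1). For the difference between effects, which uses all 4 groups and so has no fit of fewer, these called 0, except DESeq2 with 2. Of the 9 members, edgeR called 0, 0, 0 and 0, the replicate block 1, 3, 6 and 6, DESeq2 0, 0, 4 and 5, no filter 0, 0, 1 and 4, the CPM minimum 0, 0, 0 and 3, RLE 0, 0, 0 and 1, and limma on either scale and the groups compared alone 0 in each. Without each library in turn, edgeR called 0 to 30, 63 to 151, 0 to 32 and 0 to 529 genes and 0 to 0, 0 to 0, 0 to 0 and 0 to 4 members, and with the block 104 to 347, 401 to 1242, 161 to 1817 and 886 to 3060 genes and 0 to 1, 1 to 3, 5 to 6 and 5 to 6 members. For the difference these were 0 to 0 genes, and 0 to 6 with the block.

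The 9 genes had 45 log2 fold changes in the 5 comparisons, each refitted without each of 8 libraries. Of these 360 refits, 38 changed sign, 7 gained a call and 315 kept sign and call. With the block 23 changed sign, 112 were called and 225 kept sign and call, against the unblocked fit of all libraries. A change of sign was seen for 18 of the 45. Values over all such fits, for genes with a change of sign, were before commitment Rag1 (-0.14 to 0.36), Dclre1c (-0.34 to 0.11), Prkdc (-0.0270 to 0.33), Lig4 (-0.13 to 0.31), Xrcc4 (-0.42 to 0.33), Xrcc5 (-0.28 to 0.0305), Xrcc6 (-0.12 to 0.28). Others were after commitment Rag2 (-0.0159 to 0.69), Prkdc (-0.17 to 0.34), Xrcc4 (-0.49 to 0.27), Xrcc6 (-0.16 to 0.61). Others were between gates in control cells Xrcc5 (-0.18 to 0.13). Others were for the difference between effects Rag2 (-0.29 to 0.42), Dntt (-2.25 to 1.28), Prkdc (-0.33 to 0.18), Xrcc4 (-0.43 to 0.35), Xrcc5 (-0.31 to 0.000221), Xrcc6 (-0.23 to 0.55). The difference between effects for Xrcc4 also changed sign from -0.02 to 0.00795 (no filter), 0.0195 (CPM of at least 5), 0.0193 (limma on log2(FPKM + 1)), 0.0285 (limma on log2(FPKM + 0.1)). The cause was not tested. Blocked calls stand beside each result they change. A group left with 1 library was assumed to vary like the others. Xrcc4 had 92 to 283 counts per library, the fewest of the 9, and what depth adds to the spread between replicates was not measured.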

Other observations

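Homologous recombination is the other main route of double-strand break repair. Of 15 genes tested, 0 passed by edgeR between gates in control cells, blocked or not (0 at an unadjusted p under 0.05, against 14.9% of all genes). In sgStat5 cells 1 of 15 fell when blocked, Exo1, for a nuclease that resects DNA ends (-0.40, SE 0.09, adjusted p = 0.0117, against an adjusted p of 0.0903 unblocked). Of all genes 10.9% in control and 22.8% in sgStat5 cells were called when blocked, so the list was called less often than genes at large. Their blocked median log2 difference was 0.07 in control and 0.03 in sgStat5 cells, beside 0.88 and 1.17 for the 9 recombination genes and 0.03 and 0.02 over all genes; the lists were not tested against each other. With the Stat5 guides edgeR passed 0 of them in either gate, blocked or not, with 0 before and 2 after commitment at an unadjusted p under 0.05, against 6.44% and 12.4% of all genes.

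Genes of the pre-T-cell receptor complex also differed between replicates. Ptcra, for its alpha chain, was at 12.1 and 1.10 CPM in late control and 46.9 and 26.8 CPM in late sgStat5 libraries. Cd3e, for a CD3 chain, was at 237 and 29.7 and 142 and 21.8 CPM in the same libraries. Both were named after their values were seen.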
